A study of Mus musculus with 2 samples.

Results

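The 7 genes described here encode the vitamin D receptor (*Vdr*), the retinoid X receptors that pair with it (*Rxra* and *Rxrb*), the enzyme that inactivates its ligand (*Cyp24a1*), an activating enzyme and a side-chain hydroxylase (*Cyp27b1* and *Cyp27a1*), and a protein disulfide isomerase described as a second binding protein for the hormone (*Pdia3*). They were taken by symbol from 32285 genes counted in each library, and each symbol stood on 1 row whose identifier matched the annotation. The cells came from femurs of 7-week-old male C57BL/6J mice, with no transgene or deletion in either group. Untreated mice were compared with mice given calcitriol, the active form of vitamin D, intravenously at 2.5 µg/kg once a day for 3 injections, with femurs taken 24 h after the last one. No vehicle injection is given for the untreated group, so injection and calcitriol cannot be told apart. Cells of 6 mice were pooled into 1 library per group, after the epiphyses were cut off, the marrow was spun out, the bone was digested with collagenase D and EGTA, and CD45-positive cells were removed with magnetic beads. With 1 library per group no difference between the groups could be tested. Each value is given with an exact 95% interval that covers counting error only, not the spread between mice or between cells.

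Calcitriol enters the cell and binds VDR, which pairs with a retinoid X receptor on DNA and changes the transcription of its targets. In bone these targets include genes of mineral transport and matrix in osteoblasts and osteocytes, as well as *Fgf23*, a phosphate-regulating hormone made by osteocytes, and *Tnfsf11*, the RANKL cytokine that drives osteoclast formation. *Cyp24a1* is itself a VDR target, so the enzyme that breaks calcitriol down is made where the receptor is active, whereas the enzyme that makes calcitriol, encoded by *Cyp27b1*, is best known from the kidney.

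The DNA just upstream of the start sites is shown first for 3 members whose detection differed in breadth across the cell types described below: *Vdr* in few of them, *Rxra* in nearly all, and *Cyp27a1* mostly outside the bone-forming cells. The sequences are RefSeq promoters on GRCm38.p6, read 5′ to 3′ on the strand of the gene, and the capitals mark GC boxes, spelled GGGCGG on either strand. Of the 7 members, 6 had an entry in the promoter table, and *Cyp24a1* was the other one. The *Vdr* window and the *Rxra* window lie within the spans that the gene annotation gives these genes, upstream of the RefSeq starts used here.
*Vdr*, chr15:97908311-97908546, minus strand, ending 14 bases before the start: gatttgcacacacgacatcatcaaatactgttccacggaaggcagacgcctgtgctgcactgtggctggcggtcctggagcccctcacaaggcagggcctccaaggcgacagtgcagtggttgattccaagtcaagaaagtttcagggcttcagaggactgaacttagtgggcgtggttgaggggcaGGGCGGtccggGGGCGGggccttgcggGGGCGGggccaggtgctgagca
*Rxra*, chr2:27676951-27677200, plus strand: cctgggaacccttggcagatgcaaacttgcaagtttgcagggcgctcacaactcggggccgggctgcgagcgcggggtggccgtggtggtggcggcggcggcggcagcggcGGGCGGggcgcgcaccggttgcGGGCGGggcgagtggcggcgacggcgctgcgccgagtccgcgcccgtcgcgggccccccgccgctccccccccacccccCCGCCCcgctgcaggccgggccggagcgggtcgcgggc
*Cyp27a1*, chr1:74713285-74713534, plus strand: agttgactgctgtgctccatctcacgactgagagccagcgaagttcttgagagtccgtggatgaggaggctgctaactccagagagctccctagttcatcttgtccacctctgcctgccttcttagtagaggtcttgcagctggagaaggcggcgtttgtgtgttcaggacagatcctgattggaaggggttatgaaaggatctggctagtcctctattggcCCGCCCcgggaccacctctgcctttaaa

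The printed upstream windows of *Vdr* and *Rxra* each held 3 GC boxes, and that of *Cyp27a1* held 1, whereas 32.7% of 32851 promoter windows of the same length held at least 1. The first *Rxra* window was 81.2% G and C, a higher share than in 99.1% of the windows, and the *Vdr* window was 61.2% G and C against a median of 52.4%. All motifs were searched on both strands. CCAAT, found in 33.8% of windows, occurred 2 times in the *Cyp27a1* window and was absent from the *Vdr* window, and TATAAA, found in 12.4% of windows, was absent from the *Vdr* window too. AGGTCA, a core motif of many nuclear receptors, lay in 14.0% of windows and was absent from the *Vdr* window. The DR3 element, a direct repeat of such motifs with a gap of 3 bases at which VDR and a retinoid X receptor bind as a pair, was searched for on both strands with either G or T allowed at the third base of each copy. It lay in 4 windows of all genes and in none of the 6 members searched. A second *Rxra* entry, chr2:27709042-27709291, held no GC box and 2 copies of AGGTCA, and was 55.2% G and C. These matches describe letters in a short window and do not locate bound sites.

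The untreated library held 6076 barcodes with 70266983 unique molecular identifiers (UMIs, counts of distinct captured RNA molecules), and the calcitriol library held 4562 barcodes with 60392557, while 8 barcode sequences occurred in both. After filtering, 4436 and 3693 cells were kept, with medians of 10990 and 12258 UMIs per cell. Haemoglobin RNA made up 30.6% of the UMIs in the untreated library and 6.10% in the calcitriol library. CD45 RNA (*Ptprc*) was seen in 13 and 7 kept cells. The cells were grouped into 24 clusters, of which 23 were named from marker genes. Because this grouping was rebuilt here with a naming rule set after the clusters had been seen, the classes may not match those of the study. Expression was summed over all cells of a class in a library and given as CPM, the UMIs of a gene scaled to a total of 1000000 UMIs for that class in that library.

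Osteocyte-like cells were 96 untreated and 216 calcitriol cells of 1 cluster led by *Mepe*, *Dmp1*, *Phex*, *Spp1* and *Irx5*. Osteoblast markers in this class summed to 42616 and 34000 CPM, against 68397 and 54771 CPM in osteoblast-like cells. With a finer clustering only 24 and 68 cells kept the osteocyte-like name, and a further osteoblast-like cluster of 71 and 151 cells appeared. With the members left out of the variable genes, only 24 and 67 cells kept that name. A further osteoblast-like cluster then held 85 and 187 cells. Osteoblast-like cells, 350 and 332, came from a cluster led by *Bglap*, *Bglap2* and *Ifitm5* and a cluster led by *Postn* and *Tnn*. Chondrocyte-like cells, 218 and 436, came from a cluster led by *Matn3*, *Col9a1* and *Epyc* with all 10 of 10 cartilage markers and a second one led by *Chil1*, *Notum* and *Sfrp5* with only 3 of them, none among its 10 leading genes. The remaining named classes were articular surface-like (252 and 712 cells), tendon-like (376 and 484), mesenchymal-like (436 and 664), smooth muscle-like (55 and 81), endothelial-like (257 and 305) and erythroid-like cells (2307 and 434), along with small Schwann-like and skeletal muscle-like clusters.

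*Vdr* (ENSMUSG00000022479, chr15:97854425-97910630 on GRCm38, minus strand) encodes the receptor itself. Its RNA was concentrated in the bone-forming and cartilage cells, and the calcitriol library held more of it in osteocyte-like and osteoblast-like cells but not in chondrocyte-like cells. In all, 338 *Vdr* UMIs lay in 173 of the 4436 untreated cells and 859 lay in 287 of the 3693 calcitriol cells. Osteocyte-like, osteoblast-like and chondrocyte-like cells together held 84.0% of the untreated UMIs, although they made up 15.0% of the cells, and 89.3% of the calcitriol UMIs, where they made up 26.6% of the cells.

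In osteocyte-like cells *Vdr* stood at 28.0 CPM (20.4 to 37.6) in the untreated library and at 57.7 CPM (49.5 to 67.0) in the calcitriol library. The ratio was 2.06-fold (1.47 to 2.94), a log2 ratio of 1.04, in a class where 7.34% of the 9034 genes with enough UMIs were at least 2-fold higher and 4.48% at least 2-fold lower in the calcitriol library. With every cell thinned to 2000 UMIs, which left 7 and 17 *Vdr* UMIs, the log2 ratio was 0.14 (-1.20 to 1.65). The share of cells with a *Vdr* UMI was nevertheless close, 24 of 96 cells (25.0%, 16.7 to 34.9) against 57 of 216 (26.4%, 20.6 to 32.8), so the higher level lay in more UMIs per positive cell. The median UMI total per cell was 12822 and 11550 in this class. The summed level of the osteocyte marker list was also higher, 3638 against 6958 CPM with 10 of 10 genes detected in each library, while that of the chondrocyte list was lower, 14749 against 6978 CPM, and the part of either in the *Vdr* ratio was not tested.

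In osteoblast-like cells *Vdr* stood at 26.6 CPM (22.8 to 30.9) in the untreated library and at 74.1 CPM (67.7 to 81.0) in the calcitriol library. The ratio was 2.78-fold (2.34 to 3.33), a log2 ratio of 1.48, where 5.02% of 11660 genes were at least 2-fold higher and 3.55% lower. With the classes drawn instead from marker UMIs in each cell, the log2 ratio was 0.70 (0.47 to 0.93). Here the share of positive cells differed as well, 75 of 350 (21.4%) against 115 of 332 (34.6%, 29.5 to 40.0), and it was 9.55% against 22.5% when every cell was thinned to 5000 UMIs, which left out 15 and 26 shallower cells. Synovial marker RNA in this class summed to 148 and 902 CPM and smooth muscle marker RNA to 828 and 158 CPM in the untreated and calcitriol library, and their part was not tested.

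Both osteoblast-like clusters showed the difference, from different starting levels. The cluster rich in *Bglap*, which encodes the matrix protein osteocalcin, stood at 56.7 CPM (47.2 to 67.5) in the untreated library and 154 CPM (138 to 171) in the calcitriol library, with *Vdr* seen in 40 of 109 and 67 of 111 cells. In the cluster rich in *Postn*, a matrix gene of periosteal and early osteogenic cells, the levels were 11.4 and 31.4 CPM, with *Vdr* in 35 of 241 and 48 of 221 cells. Their log2 ratios of 1.44 (1.14 to 1.75) and 1.46 (0.98 to 1.96) overlapped nearly throughout, with 4.52% and 5.35% of genes at least 2-fold higher, and 3.99% and 3.88% lower, in those clusters.

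**Figure D1:**
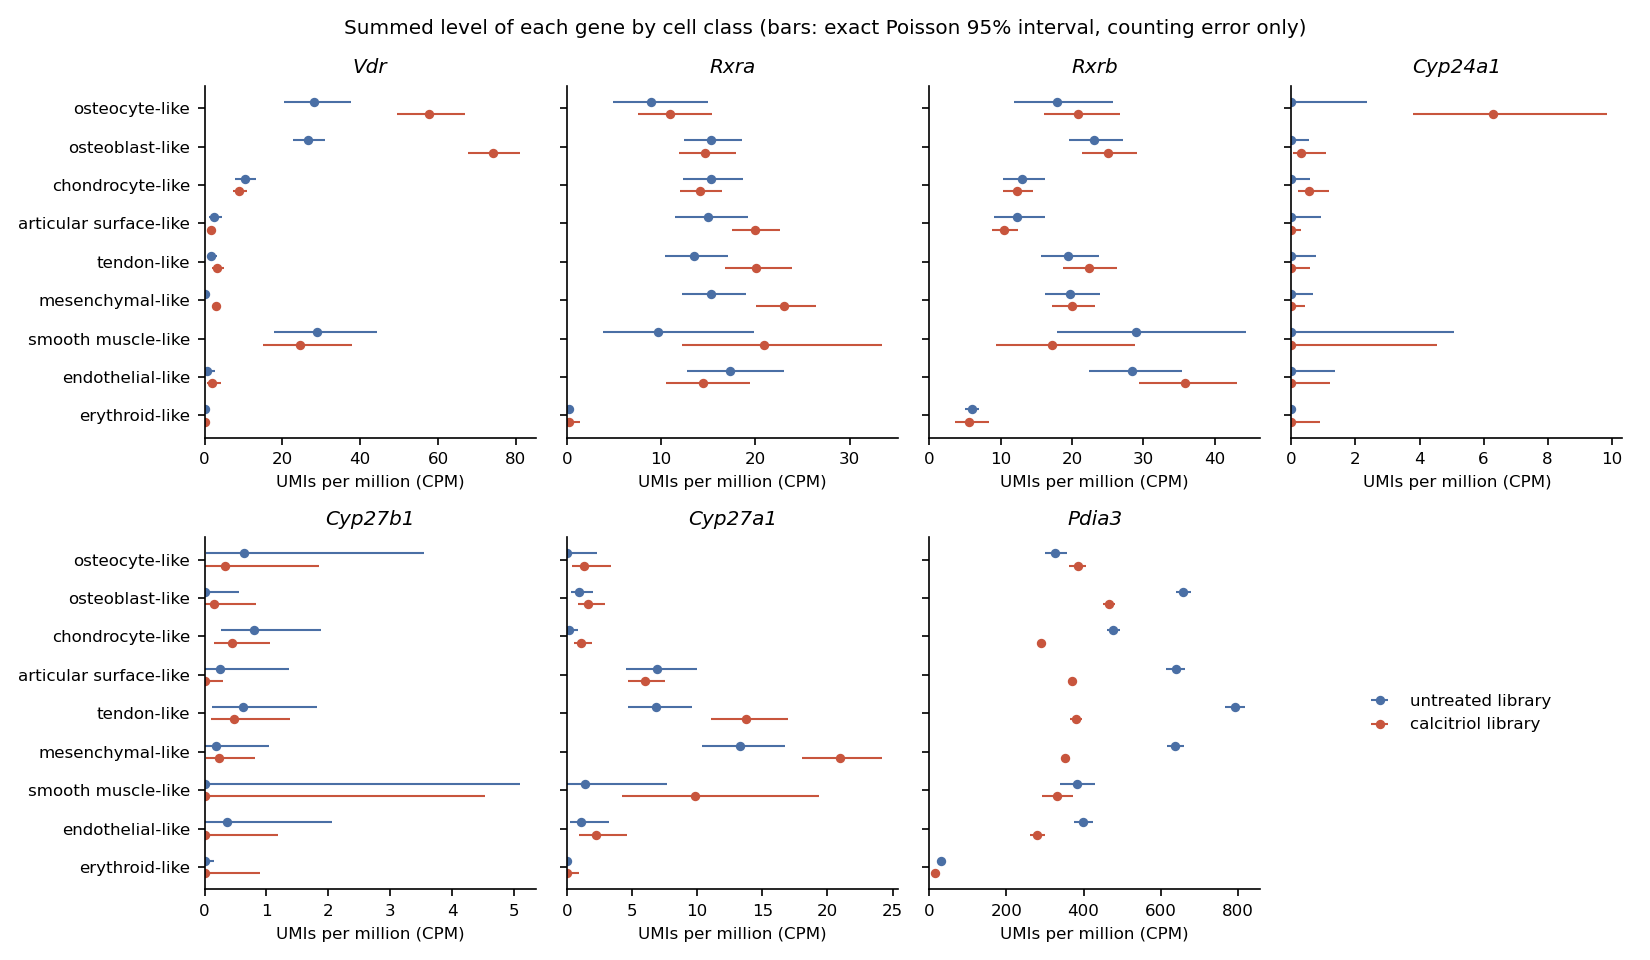
Expression of each of the 7 genes (CPM, horizontal axes) in 9 marker-defined classes (vertical axis), with points for the untreated and the calcitriol library and bars for exact 95% Poisson intervals of counting error. *Vdr* is highest in osteoblast-like and osteocyte-like cells of the calcitriol library (74.1 and 57.7 CPM), *Rxra* is spread across all classes but erythroid-like cells, *Rxrb* across all classes with its lowest levels there (6.01 and 5.61 CPM), and *Cyp24a1* appears above 0 only in osteocyte-like, osteoblast-like and chondrocyte-like cells of the calcitriol library.

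In chondrocyte-like cells *Vdr* stood at 10.3 CPM (7.91 to 13.1) in the untreated library and 8.95 CPM (7.27 to 10.9) in the calcitriol library. The log2 ratio of -0.20 had an interval from -0.67 to 0.28, which holds no 2-fold difference in either direction, and 5.91% of genes in this class were at least 2-fold higher and 5.22% lower. *Vdr* was seen in 41 of 218 cells (18.8%) and 54 of 436 (12.4%). After thinning to 5000 UMIs the shares were 2.80% and 2.47%, and the chondrocyte-like cells were the deepest of the large classes, with medians of 25674 and 22497 UMIs. Within the class, the *Matn3*-rich cluster stood at 11.7 and 11 CPM and the *Chil1*-rich cluster at 5.6 and 4.33 CPM. The *Chil1*-rich cluster gave 78 of the 218 untreated and 200 of the 436 calcitriol cells. Chondrocyte marker RNA in this class summed to 83208 and 53625 CPM and synovial marker RNA to 663 and 3399 CPM. The part of this make-up in the *Vdr* ratio was not tested.

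Cell types expected to hold little of the receptor gave the background. No *Vdr* UMI was seen in 2307 untreated or 434 calcitriol erythroid-like cells, which allows shares of up to 0.130% and 0.691%, at median depths of 10427 and 9865 UMIs. These depths include haemoglobin RNA, and the median number of genes per cell ranged from 220.5 to 1604 over the erythroid-like clusters. Endothelial-like cells held *Vdr* in 2 of 257 cells (0.778%, 0.0944 to 2.78) and 5 of 305 cells (1.64%, 0.534 to 3.78), at shallower medians of 6799 and 6421 UMIs. The shares in osteocyte-like, osteoblast-like and chondrocyte-like cells were all above these intervals. At 5000 UMIs per cell those of chondrocyte-like cells (2.80%, 1.04 to 6.00, and 2.47%, 1.19 to 4.49) overlapped endothelial-like cells (0 of 155 cells, 0 to 2.35%, and 1.72%, 0.357 to 4.96). Before thinning, articular surface-like cells (9 of 252, 3.57%, and 17 of 712, 2.39%) also overlapped the endothelial-like range.

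Mesenchymal-like cells held no *Vdr* UMI in 436 untreated cells, which allows up to 0.688% of cells or 0.560 CPM, and 25 UMIs in 18 of 664 calcitriol cells (2.71%), or 2.83 CPM. Against a floor of 3 UMIs over the untreated class the ratio was 5.05-fold, where 4.51% of genes in the class were at least 2-fold higher and 4.16% lower. The calcitriol share overlapped that of endothelial-like cells in the same library, and after thinning to 5000 UMIs the 2 classes stood at 1.32% and 1.72%. Tendon-like cells held 8 and 20 UMIs, 1.66 and 3.17 CPM, with a log2 ratio of 0.94 whose interval of -0.31 to 2.33 includes no difference.

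The smooth muscle-like cluster, led by *Myh11*, *Tagln*, *Acta2* and *Rgs5*, stood with the bone-forming cells in *Vdr* level but rested on few cells. It held 21 UMIs in 6 of 55 untreated cells (29.0 CPM) and 20 in 5 of 81 calcitriol cells (24.6 CPM), with up to 9 and 8 UMIs in a single cell. The log2 ratio was -0.24 (-1.20 to 0.72), where 6.33% of genes in the class were at least 2-fold higher and 5.58% lower. *Rgs5*, a pericyte gene, was counted in all 11 of these cells, at 30 to 296 UMIs. The unnamed cluster was led by the neutrophil genes *S100a9* and *S100a8*, and it also passed 6 of 7 markers of reticular stroma, the marrow support cells, with *Cxcl12* among its 10 leading genes. It held 13 *Vdr* UMIs in 10 of its 33 untreated cells, 45.5 CPM (24.2 to 77.8), and 1 of its 8 calcitriol cells held 2, 21.2 CPM (2.56 to 76.4). Which of its cells carried the receptor was not tested.

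Ordered by level in the untreated library, smooth muscle-like (29.0 CPM), osteocyte-like (28.0) and osteoblast-like cells (26.6) could not be separated within their intervals from one another or from the unnamed cluster (45.5), and chondrocyte-like cells (10.3) followed below all 3 of them and above the other named classes of the plot. In the calcitriol library osteoblast-like (74.1), osteocyte-like (57.7), smooth muscle-like (24.6) and chondrocyte-like cells (8.95) came in this order with no overlap between neighbours. Tendon-like (3.17), mesenchymal-like (2.83), endothelial-like (1.93) and articular surface-like cells (1.54) then overlapped with their neighbours.

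Among the 4436 untreated and 3693 calcitriol cells kept, the relative difference between the libraries was largest for cells with many *Vdr* UMIs. Cells with 1 UMI numbered 108 untreated and 144 calcitriol, cells with 2 to 4 numbered 51 and 95, and cells with 5 or more numbered 14 and 48. The highest count in a cell was 13 and 25. Of the cells with 5 or more UMIs, 9 untreated and 32 calcitriol cells were osteoblast-like, and 1 and 10 were osteocyte-like. The median count in positive cells was 1 against 3 in osteoblast-like cells and 1 against 2 in osteocyte-like cells.

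**Figure D2:**
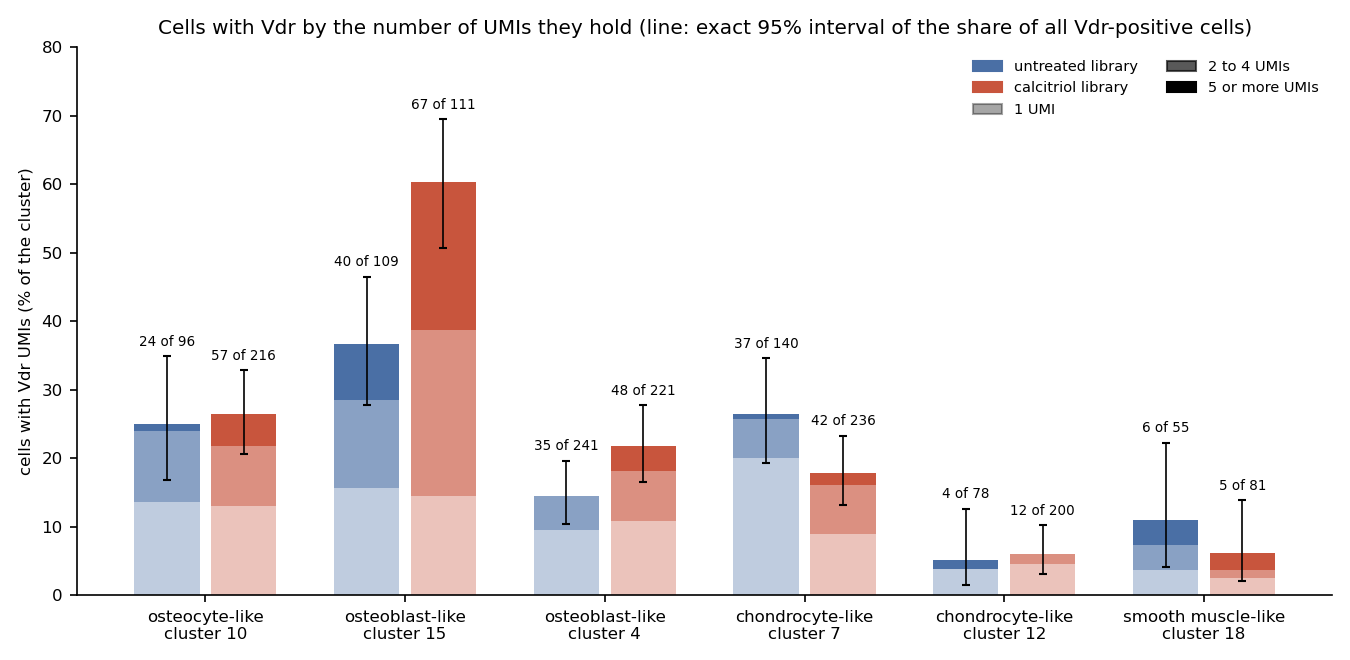
Share of cells (percent, vertical axis) with 1, 2 to 4, or 5 or more *Vdr* UMIs, as stacked bars for each library in the osteocyte-like cluster, the clusters rich in *Bglap*, *Postn*, *Matn3* and *Chil1*, and the smooth muscle-like cluster. The full bar of the *Bglap*-rich cluster reaches 36.7% untreated and 60.4% in the calcitriol library, whereas that of the osteocyte-like cluster is nearly level (25.0% and 26.4%) and differs in its segment of 5 or more UMIs.

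Within the osteocyte-like cluster the receptor followed the osteocyte genes *Dmp1*, *Mepe* and *Phex*, which act in matrix mineralization and phosphate handling. Cells with none of the 3 genes numbered 29 untreated and 92 calcitriol and stood at 6.53 and 8.10 CPM of *Vdr*. Cells with 1 of them, 33 and 45, stood at 24.6 and 30.9 CPM. Cells with 2 or 3 of them, 34 and 79, stood at 48.2 and 127 CPM, and *Vdr* was seen in 44.1% and 51.9% of them. The higher calcitriol level of the cluster thus lay mostly in the cells with 2 or 3 osteocyte genes. Depth per cell enters both the number of genes seen and the *Vdr* count. With none, 1, and 2 or 3 of the genes the median depths were 13388, 12847 and 12115 UMIs untreated. In the calcitriol library they were 12221.5, 10946 and 9333 UMIs. The part of depth in the order of *Vdr* levels was not tested.

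*Rxra* (ENSMUSG00000015846, chr2:27676440-27762957, plus strand) encodes the widely expressed retinoid X receptor alpha, the usual partner of VDR in bone. It was detected in every class of the plot at levels closer to one another than those of *Vdr*, erythroid-like cells apart. Before thinning, its levels in the libraries lay close together in osteoblast-like and chondrocyte-like cells. In osteocyte-like cells it stood at 8.92 CPM (14 UMIs) untreated and 11 CPM (33 UMIs) in the calcitriol library, a log2 ratio of 0.30 (-0.65 to 1.31). In osteoblast-like cells it stood at 15.3 CPM (101 UMIs) and 14.7 CPM (98 UMIs), a ratio of -0.06 (-0.47 to 0.36). In chondrocyte-like cells it stood at 15.3 CPM (95 UMIs) and 14.1 CPM (156 UMIs), a ratio of -0.11 (-0.49 to 0.27).

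None of these 3 intervals excluded an equal level, and those of osteoblast-like and chondrocyte-like cells held no 2-fold difference. The chondrocyte-like result depended on depth. After thinning to 5000 UMIs, *Rxra* was seen in 11.2% of untreated (7.32 to 16.2) and 4.69% of calcitriol chondrocyte-like cells (2.85 to 7.23). Their log2 ratio moved beyond its counting interval in 3 of 13 alternatives, with a range of -1.26 to 0.05. Outside the bone-forming and cartilage cells *Rxra* was higher in the calcitriol library in tendon-like cells, at 13.4 and 20.1 CPM (0.58, 0.14 to 1.04), and in mesenchymal-like cells, at 15.3 and 23.1 CPM (0.59, 0.22 to 0.98). Articular surface-like cells stood at 15 and 19.9 CPM (0.41), where 5.3% of genes were at least 2-fold higher and 4.55% lower. Endothelial-like cells stood at 17.3 and 14.5 CPM (-0.26), where 3.32% were higher and 4.29% lower, and smooth muscle-like cells at 9.66 and 20.9 CPM on 7 and 17 UMIs. Erythroid-like cells, with 5 and 1 UMIs, stood at 0.198 and 0.244 CPM and gave the background. Untreated intervals of the 8 other classes overlapped one another, so no order among them could be read. In the calcitriol library mesenchymal-like cells (20.0 to 26.5) lay above osteocyte-like (7.54 to 15.4), osteoblast-like (11.9 to 17.9) and chondrocyte-like cells (12 to 16.5).

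*Rxrb* (ENSMUSG00000039656, chr17:34031812-34038399, plus strand) encodes retinoid X receptor beta. Its level was also broad and differed little between the libraries, with every ratio interval including 0 on the log2 scale. It stood at 17.8 and 20.9 CPM in osteocyte-like cells (0.23, -0.43 to 0.93), 23.2 and 25.1 CPM in osteoblast-like cells (0.11, -0.21 to 0.44) and 13 and 12.3 CPM in chondrocyte-like cells. Endothelial-like cells had the highest level in the calcitriol library, 28.4 CPM untreated and 35.8 CPM there, and erythroid-like cells the lowest, 6.01 and 5.61 CPM. The erythroid-like values are scaled to totals that include haemoglobin RNA, whose part in this order was not tested.

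**Figure D3:**
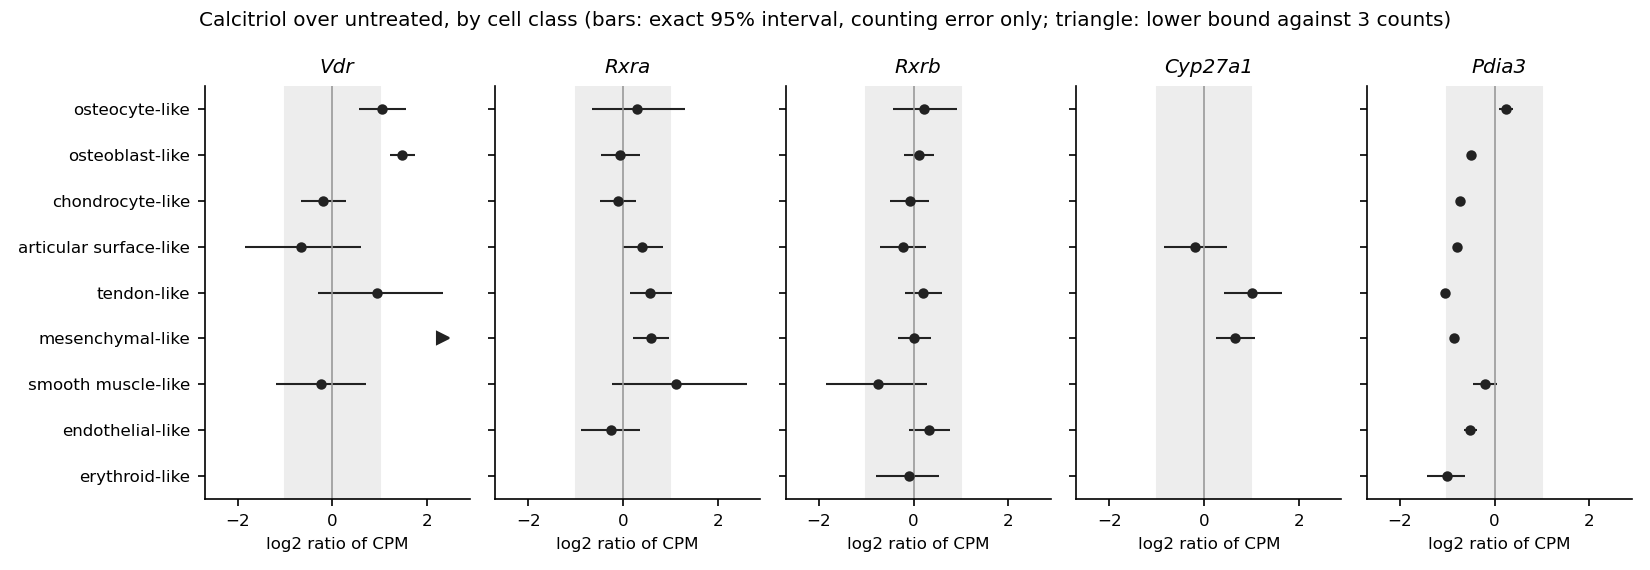
Log2 ratio of the calcitriol to the untreated library (horizontal axis) for *Vdr*, *Rxra*, *Rxrb*, *Cyp27a1* and *Pdia3* in each class, with bars for exact 95% intervals of counting error. A grey band spans -1 to 1, and a triangle marks a ratio to the floor of 3 counts where the untreated count was 0. *Vdr* lies beyond the band in osteocyte-like (1.04) and osteoblast-like cells (1.48), though the osteocyte-like interval reaches into it. *Rxra* and *Rxrb* lie close to 0 in both of these classes. The *Vdr* triangle of mesenchymal-like cells (2.34) also lies beyond the band, and *Pdia3* lies below 0 in most classes.

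Because VDR binds DNA with a retinoid X receptor, the share of *Vdr*-expressing cells in which a partner was also seen was counted. Of the *Vdr*-positive osteocyte-like cells, 12 of 24 untreated (50%) and 28 of 57 calcitriol cells (49.1%) also held a UMI of *Rxra* or *Rxrb*. The shares were 42 of 75 (56.0%) and 62 of 115 (53.9%) in osteoblast-like cells, and 29 of 41 (70.7%) and 29 of 54 (53.7%) in chondrocyte-like cells. In each of these 6 groups the positive cells in which a partner was seen were deeper than those in which none was, for example 22364 against 19038 median UMIs in untreated osteocyte-like cells and 48364 against 27119 in calcitriol chondrocyte-like cells. The part of depth in the *Vdr*-positive cells without a partner UMI was not tested.

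*Rxra* was seen in 5 of 24 *Vdr*-positive and 8 of 72 *Vdr*-negative untreated osteocyte-like cells, a difference of 9.72 percentage points (-7.02 to 31.9). In calcitriol osteocyte-like cells it was seen in 10 of 57 and 20 of 159, a difference of 4.97 points (-5.78 to 18.2). In osteoblast-like cells the differences were 9.21 points untreated (23 of 75 against 59 of 275, -2.24 to 21.8) and 2.69 points in the calcitriol library (28 of 115 against 47 of 217, -6.98 to 13). All 4 intervals included 0, so co-detection of *Rxra* with *Vdr* in the bone-forming cells was not separable from its detection in their *Vdr*-negative neighbours at this depth.

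Untreated chondrocyte-like cells gave a larger difference, with *Rxra* in 21 of 41 *Vdr*-positive cells (51.2%) and 46 of 177 *Vdr*-negative cells (26.0%), 25.2 points apart (7.64 to 42.3). The *Vdr*-positive cells there had a median of 39148 UMIs and the *Vdr*-negative ones 23193, and the difference was 0.556 points in the shallower and 30.0 points in the deeper part of the class. In calcitriol chondrocyte-like cells the difference was 11.4 points (19 of 54 against 91 of 382, -1.96 to 26.2). For *Rxrb* the difference was 22.2 points in untreated chondrocyte-like cells (4.79 to 39.5), at the same unequal depths, and 8.44 points in calcitriol ones (-4.35 to 23.1). It was 15.3 points in untreated osteocyte-like cells (-6.59 to 38.9), and 7.03 and 7.69 points in untreated and calcitriol osteoblast-like cells (-5.46 to 20.2 and -3.59 to 19.1). In calcitriol osteocyte-like cells *Rxrb* was seen in 36.8% of *Vdr*-positive and 20.1% of *Vdr*-negative cells, 16.7 points apart (2.44 to 31.8), at close median depths of 11106 and 11565 UMIs.

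**Figure D4:**
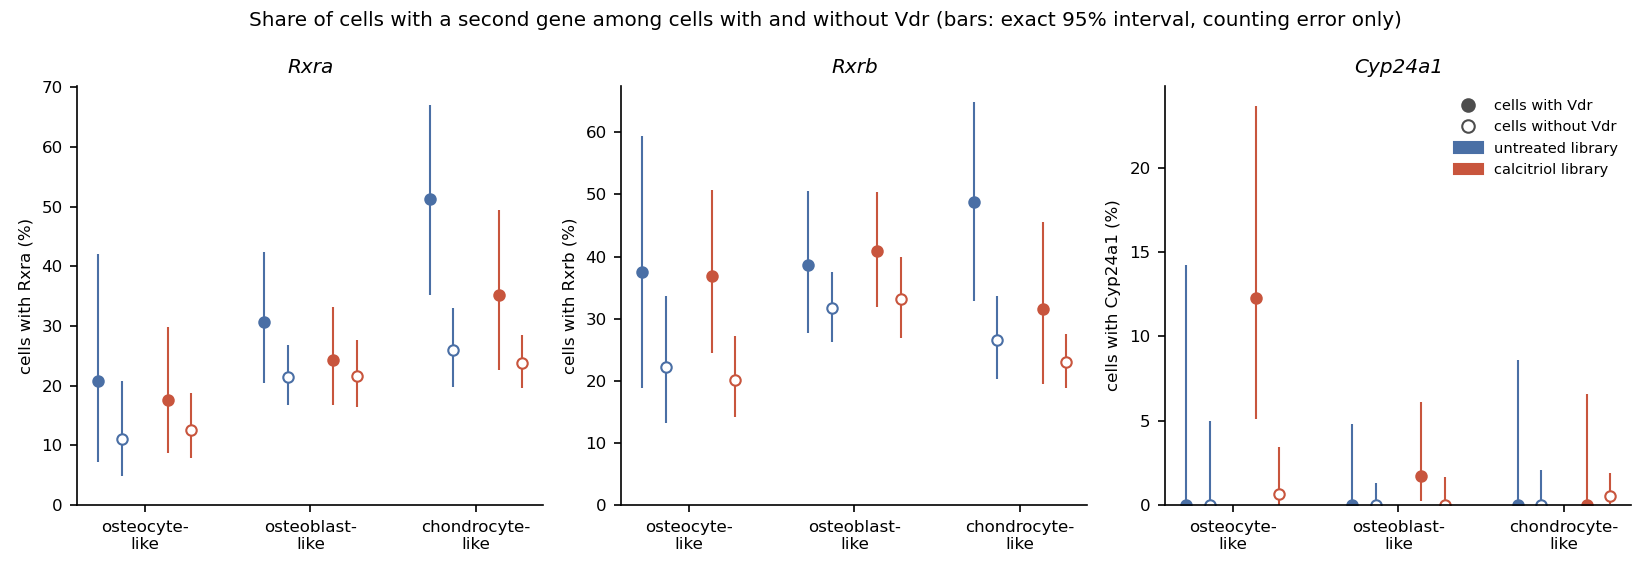
Share of cells (percent) with a UMI of *Rxra*, *Rxrb* or *Cyp24a1* among *Vdr*-positive cells (filled circles) and *Vdr*-negative cells (open circles) of the osteocyte-like, osteoblast-like and chondrocyte-like classes in both libraries, with exact 95% binomial intervals. The clearest gap for *Rxra* is in untreated chondrocyte-like cells (51.2% against 26.0%), and *Cyp24a1* lies above 0 in the calcitriol library alone.

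*Cyp24a1* (ENSMUSG00000038567, chr2:170482708-170497145, minus strand) encodes the mitochondrial hydroxylase that inactivates calcitriol. It was not seen in any of the 6076 untreated barcodes, which allows up to 0.0494% of them, nor in any of the 96 untreated osteocyte-like cells, which allows up to 3.13% of those cells or 1.91 CPM. The calcitriol library held 27 UMIs in 12 cells, of which 19 UMIs lay in 8 of 216 osteocyte-like cells (3.70%, 1.61 to 7.17). The level in osteocyte-like cells was 6.31 CPM (3.8 to 9.85). These 19 UMIs are fewer than the 20 set here for a ratio. The ratio of 3.30-fold to the floor of 3 UMIs over the untreated class is given as a description only. With 20 in place of 30 principal components the class held 14 of the UMIs, and with a finer clustering, which left 24 and 68 cells in the class, it held 12 and the ratio to the floor was 0.05 on the log2 scale. That ratio moved beyond its counting interval in 7 of 12 alternatives, down to -0.23 after thinning to 5000 UMIs, where no higher level than the floor can be stated.

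The other calcitriol UMIs lay in cartilage and osteoblast clusters. There were 6 in 2 of 436 chondrocyte-like cells, 5 of them in a single cell of the *Chil1*-rich cluster, and 2 in 2 cells of the *Bglap*-rich osteoblast-like cluster. None was seen in 434 erythroid-like, 305 endothelial-like or 664 mesenchymal-like cells of the same library, which allows up to 0.691%, 0.984% and 0.452% of them. *Cyp24a1* shares 718 bases with *Pfdn4* on the opposite strand, and the strand used in counting is not given in the sources used here.

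**Figure D5:**
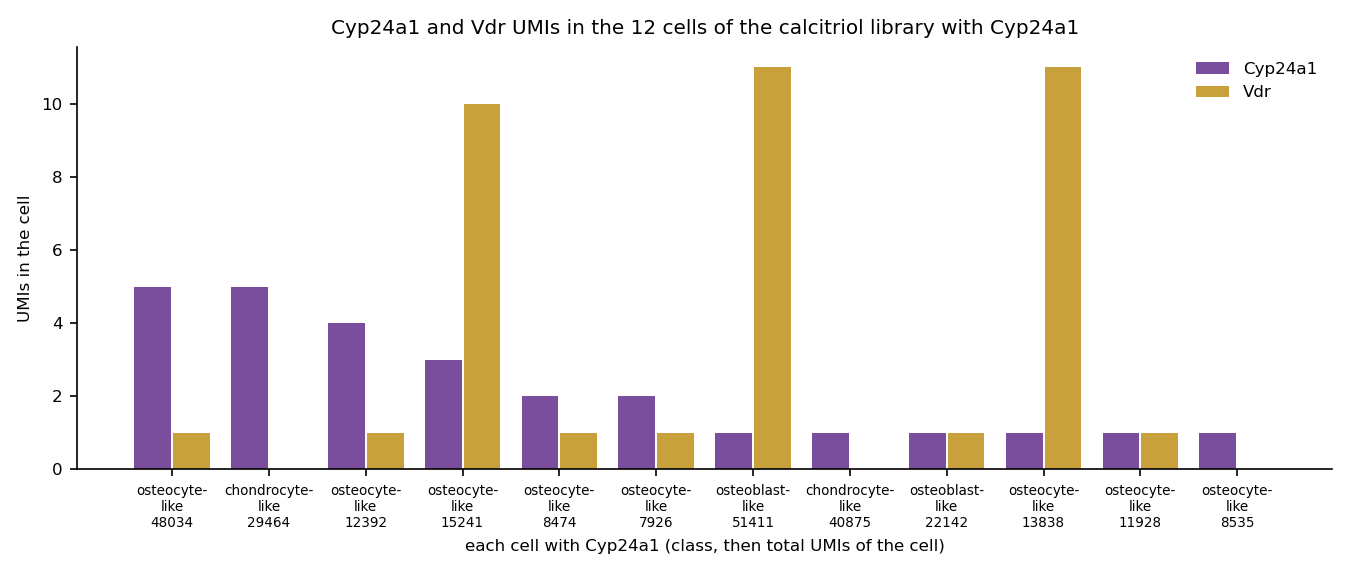
*Cyp24a1* and *Vdr* UMIs (vertical axis) in each of the 12 calcitriol cells with a *Cyp24a1* UMI, labelled beneath with the class and the total UMIs of the cell. Of the 12 cells, 9 hold *Vdr*, and the 3 cells with 10 or 11 *Vdr* UMIs hold 1 or 3 *Cyp24a1* UMIs.

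The single cells show how thin and uneven this signal was. The highest *Cyp24a1* counts were 5 UMIs in an osteocyte-like cell of 48034 total UMIs with 1 *Vdr* UMI, 5 in a chondrocyte-like cell of 29464 with no *Vdr*, and 4 in an osteocyte-like cell of 12392 with 1 *Vdr* UMI. The first of these was among the cells marked as doublets for their high Scrublet scores. It also held 7 *Dmp1* and 15 *Col2a1* UMIs, an osteocyte and a cartilage gene. An osteocyte-like cell of 15241 UMIs held 3 *Cyp24a1* and 10 *Vdr* UMIs, and one of 13838 UMIs held 1 and 11. That last cell also held 44 *Fgf23* UMIs.

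Co-detection with the receptor could be counted in calcitriol osteocyte-like cells. *Cyp24a1* was seen in 7 of 57 *Vdr*-positive cells (12.3%, 5.08 to 23.7) and in 1 of 159 *Vdr*-negative cells (0.629%, 0.0159 to 3.45), 11.7 percentage points apart (3.92 to 23.1), with median depths of 11106 and 11565 UMIs. The gap was 5.71 points in the shallower cells and 17.9 points in the deeper cells of the class. After thinning to 5000 UMIs it was 7.24 points, and with at least 2 UMIs required of both *Vdr* and *Cyp24a1* it was 1.31 points. In osteoblast-like cells *Cyp24a1* was seen in 2 of 115 *Vdr*-positive and 0 of 217 *Vdr*-negative cells, and in chondrocyte-like cells in 0 of 54 and 2 of 382.

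The *Cyp24a1* UMIs of the osteocyte-like cluster lay mostly in cells with osteocyte genes. Calcitriol cells with 2 or 3 of *Dmp1*, *Mepe* and *Phex* held 12 UMIs in 5 of 79 cells (6.33%, 2.09 to 14.2). Those with 1 gene held 5 UMIs in 1 of 45 cells (2.22%, 0.0562 to 11.8), the marked doublet. Those with none held 2 UMIs in 2 of 92 cells (2.17%, 0.264 to 7.63). These intervals overlapped, so the shares of positive cells could not be separated. *Vdr* was also seen in most *Fgf23*-positive cells of the calcitriol library. Of 8 osteocyte-like cells with *Fgf23*, 7 held *Vdr* (244 CPM, median 15559 UMIs per cell), against 50 of 208 without it (44.1 CPM, 11379 UMIs). In osteoblast-like cells *Vdr* was seen in 12 of 14 cells with *Fgf23* (278 CPM) and in 103 of 318 without it (62.5 CPM).

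*Cyp27b1* (ENSMUSG00000006724, chr10:127048250-127053006, plus strand) encodes the hydroxylase that makes calcitriol from its circulating precursor. It was close to the limit of detection, with 12 UMIs in 11 untreated cells and 12 in 12 calcitriol cells. Chondrocyte-like cells held 5 UMIs in each library, 0.803 CPM (0.261 to 1.87) and 0.452 CPM (0.147 to 1.05), tendon-like cells held 3 in each, and no other class held more than 2. It was not seen in 2307 and 434 erythroid-like cells, which allows up to 0.119 and 0.732 CPM. The untreated chondrocyte-like interval lay above that of erythroid-like cells, whose CPM are scaled to totals that include haemoglobin RNA. The order without haemoglobin RNA was not tested. No difference between the libraries was detectable at this depth.

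*Cyp27a1* (ENSMUSG00000026170, chr1:74713574-74737892, plus strand) encodes a mitochondrial sterol hydroxylase that acts in bile acid synthesis and can also hydroxylate the vitamin D side chain. It was concentrated in other cells than *Vdr*, with 48.3% of 147 untreated and 47.7% of 388 calcitriol UMIs in mesenchymal-like cells. There it was seen in 62 of 436 (14.2%) and 130 of 664 cells (19.6%), at 13.3 and 20.9 CPM, a log2 ratio of 0.66 (0.26 to 1.08). Tendon-like cells held it in 30 of 376 and 70 of 484 cells, at 6.83 and 13.8 CPM, a ratio of 1.01 (0.42 to 1.64), where 4.64% of genes were at least 2-fold higher. Articular surface-like cells stood at 6.89 and 6.02 CPM (-0.20, -0.84 to 0.49).

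Bone-forming cells held few *Cyp27a1* UMIs, 0 and 4 in osteocyte-like and 6 and 11 in osteoblast-like cells. Chondrocyte-like cells held 1 and 12, too few for a ratio, since its interval reached from 0.00 to 8.17 on the log2 scale. Endothelial-like cells gave background shares of 1.17% and 1.64% of cells, and erythroid-like cells held 1 and 0 UMIs. After thinning to 5000 UMIs the mesenchymal-like shares were 7.65% and 8.75%, and the tendon-like shares 3.39% and 7.98%.

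*Pdia3* (ENSMUSG00000027248, chr2:121413775-121438687, plus strand) encodes a disulfide isomerase that helps glycoproteins fold in the endoplasmic reticulum and has been described as a membrane-associated binding protein for calcitriol. It was the most often detected member, in 98.6% of untreated and 94.6% of calcitriol osteoblast-like cells, so that counting error was small. It was lower in the calcitriol library in all large classes outside the osteocyte-like cluster. Osteoblast-like cells stood at 659 and 465 CPM (-0.50, -0.57 to -0.43), chondrocyte-like cells at 477 and 289 CPM (-0.73), and mesenchymal-like cells at 638 and 353 CPM (-0.85).

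The largest difference among non-erythroid classes was in tendon-like cells, at 792 and 381 CPM (-1.06, -1.13 to -0.98), where 5.42% of genes were at least 2-fold lower. Articular surface-like cells stood at 639 and 369 CPM (-0.79), endothelial-like cells at 400 and 281 CPM (-0.51), and smooth muscle-like cells at 382 and 332 CPM (-0.20, -0.45 to 0.04). Osteocyte-like cells stood at 327 and 385 CPM (0.23, 0.08 to 0.39), and 3 other ways of forming this class gave ratios of -0.08, -0.01 and -0.00. In erythroid-like cells, at 29.6 and 14.6 CPM (-1.01), the median ratio of all genes was itself -0.83 with 40.9% of genes at least 2-fold lower and 2.67% higher. In the other classes of the plot the median of all genes lay between -0.08 and 0.06. *Pdia3* shares 18 bases with *Catsper2* on the opposite strand.

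The other genes of the pathway were read from lists of 12 receptor partners and coregulators, 9 further genes of vitamin D metabolism and transport, and 24 genes known to respond to calcitriol in bone or other tissues. The last list includes *Fgf23*, *Ccnd2*, *Pdgfa*, *Timp1* and *Tmem37*. The study reported these as higher after calcitriol in *Fgf23*-expressing osteocytes of these same libraries. Counts and medians of that list are therefore not independent of these data. Of the coregulators, 11 had enough UMIs for a ratio in osteocyte-like, 12 in osteoblast-like and 11 in chondrocyte-like cells, and none was 2-fold apart in either direction, with medians of 0.15, 0.08 and 0.06 beside all-gene medians of 0.06, -0.08 and -0.08. Of the metabolism list, 4, 5 and 4 genes could be read, and 1 of them was 2-fold apart, *Dhcr7* in chondrocyte-like cells at 15.9 and 5.96 CPM (-1.41). *Dhcr7* encodes the enzyme that turns the vitamin D precursor into cholesterol.

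Of the responsive genes, 17 could be read in osteocyte-like cells, of which 3 were at least 2-fold higher and 1 lower, with a median of 0.49, beside 7.34% higher and 4.48% lower among all genes and an all-gene median of 0.06. *Fgf23* was listed at 0 untreated and at 155 CPM on 467 UMIs in the calcitriol library. That is 81.1-fold the floor of 3 UMIs. Its lower bound of 65.7-fold counts every UMI as independent and leaves out the spread between cells, so it is a description only. The UMIs lay in 8 of 216 cells, with 158, 107 and 96 in the highest of them. *Ank*, a pyrophosphate transporter, stood at 689 and 2019 CPM (1.55), *Ccnd2*, a cell cycle gene, at 34.4 and 117 CPM (1.76), and *Bglap* at 2925 and 1254 CPM (-1.22).

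In osteoblast-like cells 20 responsive genes could be read, 4 at least 2-fold higher and 2 lower, with a median of 0.14, beside 5.02% and 3.55% of all genes and an all-gene median of -0.08. *Spp1*, which encodes the matrix protein osteopontin, stood at 9777 and 46609 CPM (2.25), *Enpp1*, which makes pyrophosphate, at 89.6 and 230 CPM (1.36), and *Ank* at 113 and 263 CPM (1.22). *Fgf23* was listed at 0 untreated and at 9.31 CPM in the calcitriol library, where it lay in 14 of 332 cells. That is 20.5-fold the floor, and the lower bound of 16.2-fold again leaves out the spread between cells. The lower genes were *Bglap*, at 9509 and 3439 CPM (-1.47), and the Wnt inhibitor *Sfrp1*, at 5.45 and 2.70 CPM (-1.01).

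In chondrocyte-like cells 18 responsive genes could be read, 3 at least 2-fold higher and 1 lower, with a median of 0.01, beside 5.91% and 5.22% of all genes and an all-gene median of -0.08. *Tnfsf11* stood at 1.12 CPM on 7 UMIs untreated and 11.9 CPM on 132 UMIs in the calcitriol library (3.41). *Vdr* stood at 10.3 and 8.95 CPM there, and a link between these genes was not tested. *Spp1* stood at 1673 and 3858 CPM (1.21), *Sfrp1* at 1.45 and 4.16 CPM (1.52) and *Bglap* at 274 and 96.1 CPM (-1.51). The make-up of this class differed between the libraries, as given above, and its part in these ratios was not tested. Of the members with enough UMIs for a ratio, *Vdr* was the 1 of 4 at least 2-fold higher in osteocyte-like cells and in osteoblast-like cells, and 0 of 4 were in chondrocyte-like cells, against 7.34%, 5.02% and 5.91% of all genes in these classes.

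Across 42 cluster and library combinations, the genes with the pattern of level most like each member were found among 11903 genes. Pearson correlation of log2 CPM was used, as a description over points that share 2 libraries. These points include erythroid-like clusters, the class of the plot where *Rxra*, *Rxrb* and *Pdia3* stood lowest. Their part in the correlations was not tested. *Vdr* was most like *Msi1* (0.90), which encodes an RNA-binding protein, and *9130024F11Rik* (0.89). *Rxra* was most like *Egr1* (0.95), *Kdsr* (0.95) and *Klf4* (0.95), of which *Egr1* and *Klf4* encode transcription factors that respond quickly to stimulation. *Rxrb* was most like *Kansl1*, *Bag6* and *Tmem259* (0.95 each), and *Cyp27a1* most like *Wdr19* (0.88), *E130114P18Rik* (0.85) and *Abca6* (0.85).

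*Pdia3* was most like *Rer1* (0.99), *Sar1a* (0.99) and *Erp44* (0.99), genes of the endoplasmic reticulum and of transport from it. Among the members themselves, *Vdr* had correlations of 0.26 with *Rxra*, 0.31 with *Rxrb*, 0.39 with *Pdia3* and -0.12 with *Cyp27a1*. Over these points, erythroid-like clusters included, *Rxra* was more alike to *Rxrb* (0.71) and *Pdia3* (0.88) than to *Vdr*.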

How the data were processed

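Single-cell 3′ libraries (10x Genomics v3.1) of 1 untreated and 1 calcitriol pool were read from the deposited matrices of UMI counts, which per the labels the authors made with Cell Ranger 4.0.0 on mm10 and analysed with Seurat 3.2.2; introns, strand and cell-calling settings are not given in the sources used here. Barcodes with at least 200 genes were kept. A cluster of a library was left out only when its medians passed all 3 quality limits together (197 and 227 cells, from 1 cluster each). These limits were over 10% mitochondrial RNA, under 1000 genes and under 2000 UMIs. The cells were then joined and clustered in Seurat 5.3.0 (2000 variable genes, 30 principal components, resolution 0.8), where 2 members were among the variable genes.

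A cluster took the name of the marker list with the largest share of its genes passing (at least 3 genes in at least 10% of cells and 2-fold above the rest), unless another list had more genes among its 10 leading ones. Scrublet (scanpy 1.11.5) scored cells as doublets. The highest scores were marked, 172 and 123 cells, a number set by an assumed rate of 0.8% per 1000 cells, and none was removed. Counts were summed per class and library. Intervals are exact Poisson, Clopper-Pearson and conditional binomial (scipy 1.17.1) at 95%, a count of 0 was given a floor of 3 counts, and a ratio needed 20 UMIs over both libraries. No count test was run, since each group is 1 library. Thinning drew 5000 or 2000 UMIs per cell. Gene positions are those of GENCODE vM21 on GRCm38. Genes named as alike were the 3 with the highest correlation per member (1 is not reported here), and pathway genes were named where they were at least 2-fold apart. The members, gene lists and comparisons were chosen with earlier results of these data known. The scripts were tested on simulated data.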

Additional observations from a re-analysis of the deposited data

Results flagged for a closer look

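Signal in barcodes that no comparison used was compared with the untreated library. In 869 calcitriol barcodes left out by the filters, *Rxrb* stood at 4.06 CPM (16 UMIs) and *Pdia3* at 30.9 CPM (122 UMIs, 50 of them in a single barcode). In 1640 untreated barcodes left out in the same way they stood at 0.489 CPM (6 UMIs) and 12.2 CPM (150 UMIs). These levels are scaled to totals that include haemoglobin RNA. Over all deposited barcodes it made up 41.2% of untreated and 10.6% of calcitriol UMIs, and its part was not tested.

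The log2 ratio of *Pdia3* pointed one way in osteocyte-like cells (0.23) and the other way in osteoblast-like (-0.50), chondrocyte-like (-0.73), articular surface-like (-0.79), tendon-like (-1.06), mesenchymal-like (-0.85), endothelial-like (-0.51) and erythroid-like cells (-1.01). With 1 library per group the difference between classes was not tested.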

How the results depend on the processing

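Of 101 alternative values for the main comparisons, 88 stayed within the counting interval of the reported value (for counts of genes, within 1.5 times), 13 moved and 0 reversed. Of 217 for single genes or classes, 179 stayed, 35 moved and 3 reversed. The *Vdr* log2 ratio ranged from 0.14 to 1.09 in osteocyte-like, 0.70 to 1.75 in osteoblast-like and -0.58 to -0.05 in chondrocyte-like cells. In osteocyte-like cells it was 0.14 after thinning to 2000 UMIs. In osteoblast-like cells it was 1.17 with the members left out of the variable genes, 0.70 with classes drawn from marker UMIs per cell, and 1.02 and 1.75 after thinning to 2000 and 5000 UMIs. With classes from marker UMIs the *Rxra* co-detection difference in osteocyte-like cells was -6.41 points. With at least 2 UMIs required of both *Vdr* and *Cyp24a1*, the *Cyp24a1* difference there was 1.31 points. The *Pdia3* ratio in osteocyte-like cells was -0.0810 with 20 principal components, -0.00955 when a cluster was left out for any of the 3 quality limits and -0.00273 with classes from marker UMIs. The cause was not tested.

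Genes at least 2-fold apart numbered 1068 in osteocyte-like, 999 in osteoblast-like and 1371 in chondrocyte-like cells, 493, 592 and 828 with at least 50 UMIs and 4196, 4123 and 4648 with no minimum, which changes the genes read. Clusters shown apart within classes were an alternative chosen after seeing the data. No paired analysis was possible because each group is 1 library.

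Depth limits the rare members: *Cyp24a1* and *Cyp27b1* rest on 27 and 24 UMIs in the kept cells of both libraries together, so their absence in a class is a limit and not a level of 0. Leaving out a replicate was not possible with 1 library per group.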
